A study of Mus musculus with 6 samples.

Results

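Small nucleolar RNA (snoRNA) genes were followed in RNA sequencing libraries of mouse T cells. The members were the 135 genes of biotype snoRNA whose FPKM (fragments normalised for gene length and library size, the deposited unit) averaged at least 1 over the 6 libraries. They were thus chosen by their measured level, out of 1507 snoRNA genes and 54532 genes in the table, and 376 snoRNA genes had any read at all. The choice used the mean over both groups and not the difference between them. Still, 30 members averaged under 1 FPKM in a single group (15 in each) and were chosen through the group where they were higher, so a difference was built into their choice. The T cells were isolated from spleens of C57BL/6 mice, kept with IL-2 and activated with beads carrying antibodies to CD3 and CD28. They were then co-cultured with ID8, a mouse ovarian cancer cell line, which had first been exposed to 40 µM cisplatin (cisplatin, n = 3) or to PBS (control, n = 3). Both groups therefore held activated T cells that met tumour cells, and they differed by what the tumour cells had received. The labels do not say that the 3 libraries of a group came from separate mice or cultures, so p-values measure the spread between these libraries, which may be technical.

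SnoRNAs are short RNAs of the nucleolus that guide chemical changes of ribosomal RNA. Box C/D snoRNAs (symbols Snord) guide 2′-O-methylation and box H/ACA snoRNAs (symbols Snora) guide the conversion of uridine to pseudouridine. Scarna genes encode related RNAs of the Cajal body. Most mammalian snoRNAs are cut out of introns of a host gene after splicing, and many hosts encode ribosomal proteins or translation factors. Mature snoRNAs carry no poly(A) tail, and these libraries were made from RNA captured on poly-T beads and primed with random hexamers. Reads on a snoRNA gene were therefore a count of RNA covering that stretch of the genome, and mature snoRNA, unspliced host RNA and retained intron could not be told apart.

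The gene sequences were searched for the boxes of both classes. Box C was searched as TGATG in the first 20 bases and box D as CTGA in the last 15 bases. The H/ACA class was searched as ANANNA in the middle of the gene and ACA 3 bases before the end, on the gene's own strand, among genes without the C/D pair. The C/D pair was found in 49 of 135 members (36.3%) and the H/ACA pair in 40 (29.6%), compared with 23.0% and 15.5% of all 1507 snoRNA genes. Among 3806 other small RNA genes of 60 to 160 bases these shares were 0.105% and 0.762%. Of the members with a Snord symbol, 23 of 27 held the C/D pair, and 8 of 10 with a Snora symbol held the H/ACA pair. C/D members had a median length of 76 bases and H/ACA members of 133.5 bases.

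The sequences shown are those of some members with the most reads or with rises on at least 10 reads, and of the single member that departed from its host. They were taken from GENCODE release M21 (GRCm38). Capitals mark boxes C and D, or the hinge and ACA of the H/ACA class, and Snord53 is in lower case throughout because its last bases do not match the box D letters.
Snord104: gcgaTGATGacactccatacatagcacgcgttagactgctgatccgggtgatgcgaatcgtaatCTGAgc
Snord53: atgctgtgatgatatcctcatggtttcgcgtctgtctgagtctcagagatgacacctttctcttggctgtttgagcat
Gm22858: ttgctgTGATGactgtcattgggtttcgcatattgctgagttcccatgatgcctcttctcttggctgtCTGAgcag
Gm22571: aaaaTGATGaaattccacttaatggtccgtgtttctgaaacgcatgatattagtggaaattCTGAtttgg
Rnu73b: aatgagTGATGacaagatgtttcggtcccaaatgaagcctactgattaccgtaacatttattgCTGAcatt
Snord83b: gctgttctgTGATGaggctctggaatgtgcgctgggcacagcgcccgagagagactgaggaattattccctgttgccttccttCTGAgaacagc
Gm24339: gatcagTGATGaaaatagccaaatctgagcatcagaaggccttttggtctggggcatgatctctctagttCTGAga
Snora31: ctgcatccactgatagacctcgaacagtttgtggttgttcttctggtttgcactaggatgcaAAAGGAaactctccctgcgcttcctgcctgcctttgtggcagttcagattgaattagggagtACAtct
Snora41: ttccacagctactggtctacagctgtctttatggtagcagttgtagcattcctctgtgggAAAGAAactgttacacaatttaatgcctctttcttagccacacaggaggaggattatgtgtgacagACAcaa

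Snord53 (chr17:71640879-71640956, plus strand) and Gm22858 (chr17:71641584-71641659, plus strand) lie 627 bases apart in introns of Wdr43 and share 73.1% of their bases. Gm22571 (chr9:64175873-64175942, plus strand) lies in an intron of Rpl4. Rnu73b (chr3:86140618-86140688, minus strand) lies in Rps3a1, Snord83b (chr15:80078498-80078591, minus strand) in Rpl3 and Gm24339 (chr9:15326464-15326539, minus strand) in Cep295. Snora31 (chr14:75847905-75848034, plus strand) lies in Tpt1 and Snora41 (chr1:63179004-63179135, plus strand) in Eef1b2, whereas Snord104 (chr11:106500993-106501062, plus strand) was spanned by no gene.

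A host was defined as a longer gene on the same strand that encloses the snoRNA gene. Of the 135 members, 97 lay in an intron of their host and 4 overlapped a host exon (Gm24616 in Eif4a2, Snord42b in Rpl23a, Snora2b in Kansl2 and Gm22486 in Ptcd3). A further 21 lay only within a gene of the other strand and 13 within none. The 101 members with a host were spread over 80 hosts, and 38 of them shared a host with another member. Ribosomal protein genes hosted 23 members, other protein-coding genes 70 and non-coding genes 8. Intronic members with the C/D pair lay a median of 144 bases upstream of the next exon (quartiles 82.5 and 690.5, n = 46), and those with the H/ACA pair 682.5 bases (n = 32). Over all intronic snoRNA genes these medians were 16794 bases (n = 253) and 1610 bases (n = 97).

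The share of snoRNA genes that reached the level of a member rose with the level of the host. It was 3 of 329 (0.912%) where the host averaged under 1 FPKM, 16 of 94 (17.0%) at 1 to 10 FPKM, 54 of 166 (32.5%) at 10 to 100 FPKM and 28 of 74 (37.8%) at 100 FPKM or more. Among snoRNA genes with no spanning gene it was 13 of 628 (2.07%), and among those within a gene of the other strand only, 21 of 216 (9.72%). A member's FPKM, which is per length, had a median of 8.12% of that of its host. In 8 members it was above the host (Gm24539, Gm24095, Snora30, Gm24944, Snord7, Snord89, Gm24339 and Scarna9).

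The depth behind each gene was small. Reads on genes totalled 30606569 to 32169496 per library, of which 1695, 1730 and 1772 fell on the members in the cisplatin libraries and 1288, 1333 and 1269 in the control libraries. A member averaged 2.17 to 53.8 reads per library (median 7.83), and 50 members averaged 10 or more. Just inside the level that chose the members were Gm22486 and Gm23908, with means of 1.004 and 1.01 FPKM, and just outside were Snord92, Gm24166 and Gm24406, with 0.973, 0.970 and 0.967 FPKM. For 20 members another snoRNA gene of at least 95% identity exists, and Gm25632 and Gm22192, both in Prrc2b, are identical. How reads that match several genes were treated is not stated, so values of such copies are uncertain.

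The libraries also differed in the levels of cell-type markers. All 15 T-cell markers were higher with cisplatin-pretreated ID8 cells (mean log2 fold change 0.59), and their summed level was 1931 to 1992 FPKM in cisplatin and 1205 to 1288 FPKM in control libraries. The summed level of 14 ID8 markers was 222 to 230 FPKM in cisplatin and 1583 to 1672 FPKM in control libraries. All 12 that were tested fell, and Krt7 and Igfbp5 were under 1 FPKM on average. The 7 B-cell markers rose (sum 3559 to 3641 against 1648 to 1730 FPKM), as did 6 of 7 tested of the 9 myeloid markers (sum 122 to 140 against 58.5 to 62.4 FPKM), with S100a8 and S100a9 under 1 FPKM. In these bulk libraries fewer cells of a type and less RNA per cell cannot be told apart. Any part of cell content in the values that follow was not tested. The main directions are also given after every library was centred on the T-cell markers. That centring moved the median log2 fold change of all tested genes from 0.03 to -0.56. Falls after it are thus not particular to a list, and the share of all tested genes past the threshold after it is not given here.

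Summed over the members, FPKM was 526 ± 19.4 (SD, n = 3) in cisplatin and 407 ± 10.04 (SD, n = 3) in control libraries, a ratio of 1.29. Scaled to the library's reads on genes, the members took 53.8 to 56.6 RPM in cisplatin and 40.6 to 43.4 RPM in control libraries. Every cisplatin library was above every control library. The ratio differed by host class. It was 1.5 for the 23 members in ribosomal protein genes (158 ± 4.76 against 105 ± 5.05 FPKM, SD, n = 3 each), whose hosts themselves had a ratio of 1.27. It was 1.57 for the 8 members in non-coding genes (hosts 1.13), 1.23 for the 70 in other protein-coding genes (hosts 1.20), 1.15 for the 21 within a gene of the other strand and 1.09 for the 13 outside any gene. These sums are a description, with no test. With T-cell centring the ratio was 0.858 for all members, 0.997 in ribosomal protein genes (hosts 0.844), 1.05 in non-coding genes (hosts 0.750), 0.819 in other protein-coding genes (hosts 0.799), 0.763 within a gene of the other strand and 0.724 outside any gene.

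**Figure D1:**
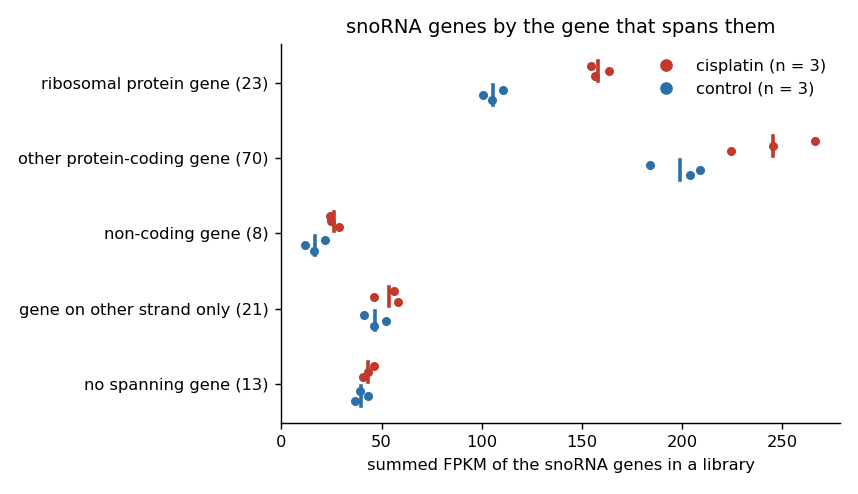
Summed FPKM of the snoRNA genes in each library (horizontal axis, linear from 0), by the kind of gene that spans them, with the number of snoRNA genes in brackets. Points are libraries (n = 3 per group) and vertical bars are group means. The cisplatin libraries lie above the control libraries in the ribosomal protein, other protein-coding and non-coding classes, and the groups overlap in the remaining classes. These are values as deposited, and T-cell centring brings the ratio over all members to 0.858.

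The groups were compared gene by gene with limma on log2(FPKM + 0.1), with p-values adjusted by the Benjamini-Hochberg method over 15874 genes of at least 0.5 FPKM. On this scale the size of a change in low genes depends on the value added, and a library without reads can enlarge it. Of the 135 members, all of which were tested, 11 were higher with cisplatin (8.15%) and 3 lower (2.22%) at an adjusted p under 0.05, compared with 29% of all tested genes higher and 30.3% lower. All of these changes were at least 2-fold. Of the members that passed, 5 averaged under 1 FPKM in a single group and were chosen through the group where they were higher. At both thresholds 4.08% of all tested genes were higher and 12.8% lower. The values of the groups did not overlap for 27 members (20%, 21 of them higher in cisplatin), against 64.2% of all tested genes. Few reads lay behind each member, and among the 2516 other tested genes within the members' range of reads 18.8% passed, compared with 10.4% of members. These other genes were matched on the range only and were measured better, with a median SE of 0.50 against 0.75 for members.

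The median log2 fold change of the members was 0.23 (quartiles -0.43 and 0.85), and 87 of 135 were above 0. It was 0.03 over all tested genes and 0.19 over the other tested genes in the members' range of reads. After centring on the T-cell markers the median of the members was -0.36, with 52 above 0, and 1 member was higher and 10 were lower at an adjusted p under 0.05 from limma. The balance of rises and falls thus depended on the scaling, and only Gm24339 was higher under both. Gm24339 averaged under 1 FPKM in the control libraries and became a member only through the cisplatin libraries, so a difference was built into its choice. The members' median stayed 0.20 above that of all tested genes (-0.56 after centring), as centring moves every gene alike.

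**Figure D2:**
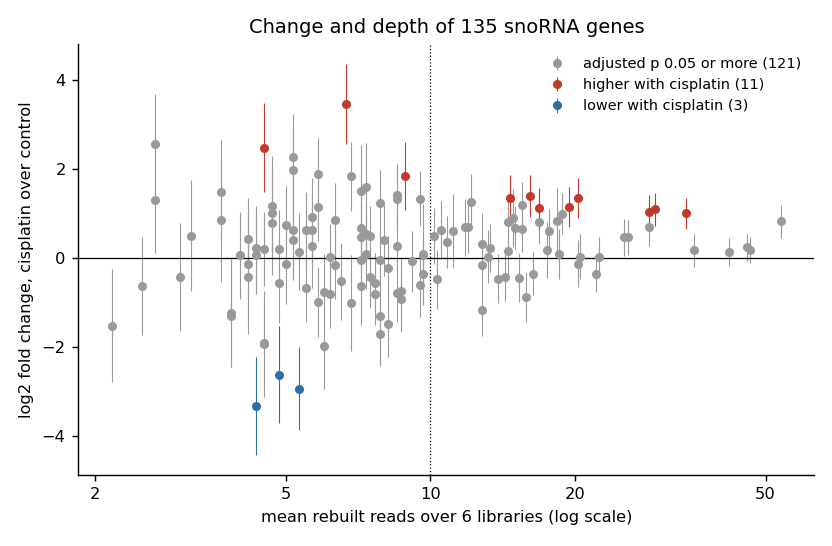
Log2 fold change of each of the 135 snoRNA genes, cisplatin over control (vertical axis, with its standard error as a bar), against its mean reads over the 6 libraries (horizontal axis, log scale). The dotted line marks 10 reads. The 11 higher and 3 lower genes at an adjusted p under 0.05 are coloured, and the 3 lower genes lie below 10 reads.

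The 50 members with at least 10 reads had a median log2 fold change of 0.48, and 8 were higher and none lower at an adjusted p under 0.05 from limma. Over all tested genes 29% were higher and 30.3% lower. Of the 2516 other tested genes in the members' range of reads, which includes fewer than 10 reads, 271 were higher and 201 lower. At an unadjusted p under 0.05 from limma, 11 of the 50 were higher and 0 lower, against 355 and 239 of the 2516. With T-cell centring the median of the 50 was -0.10, and 24 were above 0. At an adjusted p under 0.05 from limma 0 were then higher and 3 lower, where the median of all tested genes was -0.56. Limma's voom on the rebuilt reads called 8 of the 50 at an adjusted p under 0.05, all higher, with Gm22478 in and Snord83b out. Of the 8 passing on log2(FPKM + 0.1), 5 lay in ribosomal protein genes, 2 in Wdr43 and 1 in Eef1b2. Ribosomal protein genes hosted 23 of all 135 members, and their share of the 50 with at least 10 reads is not given here. Among the 85 members with fewer reads, 3 were higher and 3 lower.

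Wdr43, which encodes a nucleolar protein of the machinery that builds the small ribosomal subunit, hosts 2 of the risers. Snord53 had 31, 54 and 57 reads in the cisplatin and 23, 20 and 20 in the control libraries. All cisplatin libraries were above all control libraries, with the first the lowest of them. The level of Snord53 was 18.6 ± 5.51 against 8.91 ± 0.796 FPKM (SD, n = 3 each), and limma gave it a log2 fold change of 1.01 (SE 0.35, adjusted p = 0.021). Gm22858, its neighbour in the same gene, had 38, 35 and 50 against 22, 17 and 14 reads. The groups were again apart, and its log2 fold change was 1.10 (SE 0.37, adjusted p = 0.017). The host lay at 30.8 to 32.1 FPKM in the cisplatin and 22.7 to 25.3 FPKM in the control libraries (log2 fold change 0.40, SE 0.05). The difference between snoRNA and host missed the threshold for both genes (Snord53 0.61, SE 0.34, adjusted p = 0.385, and Gm22858 0.70, SE 0.36, adjusted p = 0.335).

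Rpl17, a protein of the large ribosomal subunit, hosts 3 members, all with the C/D pair. Snord58b had 24, 22 and 26 reads in the cisplatin and 8, 7 and 10 in the control libraries, and the groups were far apart. At 11.2 ± 1.05 against 4.17 ± 0.710 FPKM (SD, n = 3 each), Snord58b rose by a log2 fold change of 1.41 (SE 0.47, adjusted p = 0.017). Gm23301, 331 bases away and 84.8% identical, had 18, 26 and 20 against 12, 7 and 5 reads (log2 fold change 1.36, SE 0.53, adjusted p = 0.035). The third, Gm26202, had 10, 17 and 9 against 5, 6 and 14 reads, so its groups overlapped (log2 fold change 0.50, SE 0.63, adjusted p = 0.527). The host ranged from 771 to 857 FPKM in cisplatin and from 462 to 861 FPKM in control libraries, with the third control library the highest of the 6. Snord58b minus host was 1.01 on the log2 scale (SE 0.45, adjusted p = 0.245).

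Rpl4, also of the large subunit, hosts 3 C/D members. Gm22571 had 49, 39 and 30 reads against 17, 14 and 22, with no overlap (17.2 ± 4.22 against 8.33 ± 1.80 FPKM, SD, n = 3 each). Its log2 fold change was 1.03 (SE 0.38, adjusted p = 0.027), while that of the host was 0.37. Gm23136 in the same gene had 24, 39 and 30 against 17, 18 and 27 reads (log2 fold change 0.47, SE 0.40, adjusted p = 0.328), and its groups overlapped. Gm23344 averaged under 10 reads, and its log2 fold change was -0.62 (SE 1.10, adjusted p = 0.656). Members of a single host thus had unequal estimates, and the differences between them were not tested.

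Rps3a1, a protein of the small subunit, hosts Rnu73b, which had 24, 34 and 31 reads in the cisplatin and 16, 9 and 8 in the control libraries. The groups did not overlap, and the level was 12.8 ± 2.09 against 5.14 ± 2.07 FPKM (SD, n = 3 each, log2 fold change 1.36, SE 0.45, adjusted p = 0.015). Its neighbour Snord73a had 14, 11 and 32 against 3, 19 and 10 reads and overlapped (log2 fold change 0.90, SE 0.65, adjusted p = 0.255). Snord83b in Rpl3, a protein of the large subunit, had 24, 27 and 20 against 8, 12 and 10 reads, again apart. Its log2 fold change of 1.12 (SE 0.47) was at the edge of the threshold, with an adjusted p of 0.049, and of 0.055 by limma's voom.

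Snora41 was the H/ACA member among the risers. It lies in Eef1b2, a subunit of a translation elongation factor, and had 29, 34 and 20 reads in the cisplatin and 8, 13 and 13 in the control libraries. The groups did not overlap (6.41 ± 1.58 against 2.84 ± 0.710 FPKM, SD, n = 3 each, log2 fold change 1.15, SE 0.45, adjusted p = 0.038). Another snoRNA gene, Gm23723, is 97.7% identical to it, so its reads are uncertain. Over all members the H/ACA class had 1 higher and 1 lower of 40 (median log2 fold change 0.03), and the C/D class 8 higher and 1 lower of 49 (median 0.61). With T-cell centring these medians were -0.56 and 0.02. The difference between the classes was not tested.

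Of the 8 calls, only 1 held whichever library was left out. Snord58b passed with any 1 of the 6 libraries left out (highest adjusted p 0.048), and Snord83b with none of them left out (up to 0.121). Snord53 and Gm23301 missed the threshold without cisplatin library 2 or 3 or control library 2 or 3 (up to 0.082 and 0.128). Gm22858 missed it without cisplatin library 3 or control library 3 (up to 0.067), and Rnu73b without cisplatin library 2 or control library 3 (up to 0.062). Gm22571 missed it without cisplatin or control library 1 or 2 (up to 0.095), and Snora41 without cisplatin library 1 or 2 or control library 1 (up to 0.123). Over these fits the log2 fold changes ranged from 0.84 to 1.69. With T-cell centring all 8 stayed above 0 (log2 fold change 0.42 to 0.82), and the adjusted p from limma was 0.132 to 0.324.

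**Figure D3:**
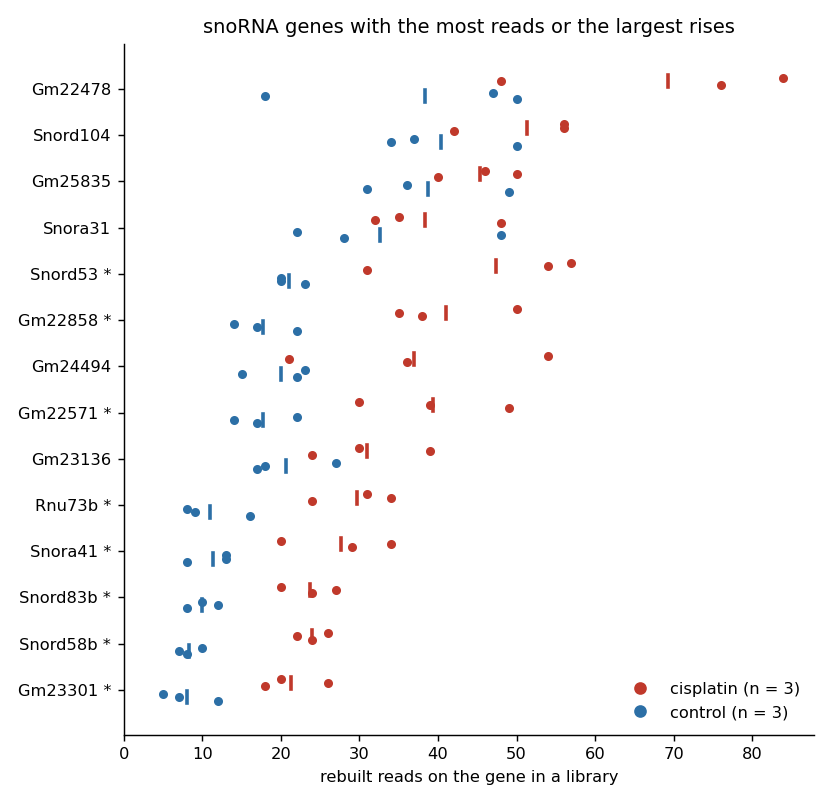
Reads in each library (horizontal axis, linear from 0) for 9 of the snoRNA genes with the most reads and the 8 that rose with at least 10 mean reads, 14 genes in all since 3 are in both. Points are libraries (n = 3 per group), vertical bars are group means and asterisks mark an adjusted p under 0.05 from limma. The groups are apart for the 8 marked genes and overlap for the other 6.

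Of the 10 members with the most reads, 3 are among these risers (Snord53, Gm22858 and Gm22571), and the others missed the threshold. Gm22478, which lies only within a gene of the other strand, had 76, 48 and 84 reads against 50, 18 and 47, and the groups overlapped because the second cisplatin library was under the first control library (log2 fold change 0.83, SE 0.37, adjusted p = 0.063). It passed in 8 of 19 alternatives, limma's voom among them (adjusted p = 0.045). Snord104 had 42, 56 and 56 against 50, 34 and 37 reads (log2 fold change 0.24, SE 0.30), and its groups overlapped.

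Gm25835 in Eif4a1, an RNA helicase of translation initiation, had 40, 50 and 46 against 49, 31 and 36 reads (log2 fold change 0.14, SE 0.31), while its host was lower, at 103 to 110 FPKM against 126 to 130 FPKM (log2 fold change -0.27, SE 0.03). Snora31 in Tpt1 had 48, 32 and 35 against 28, 48 and 22 reads (log2 fold change 0.17, SE 0.37). Gm24494 in Rabggtb, a subunit of a protein prenyltransferase, had 36, 21 and 54 against 22, 15 and 23 reads (log2 fold change 0.69, SE 0.42, adjusted p = 0.168). All 3 overlapped between the groups. Under T-cell centring the log2 fold changes of Snord104, Gm25835, Snora31 and Gm23136 turned negative (-0.35, -0.45, -0.42 and -0.12).

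The other 6 members past the threshold averaged under 10 reads and are named after their values were seen, among them Gm24339, which is described with its host. Snord35a in Rpl13a had 12, 7 and 22 reads in the cisplatin and 8, 3 and 1 in the control libraries, which overlapped (log2 fold change 1.84, SE 0.77, adjusted p = 0.048). Snord70 in Nop58, itself a core protein of box C/D particles, had 8, 6 and 8 against 3, 2 and 0 reads, with no overlap (log2 fold change 2.48, SE 1.003, adjusted p = 0.042). Snord70 averaged 0.638 FPKM in the control libraries and became a member only through the cisplatin libraries. With T-cell centring neither passed (log2 fold change 1.25 and 1.89, adjusted p = 0.155 and 0.103 from limma). Snord35a missed the threshold without cisplatin library 1 or 3 or control library 2 or 3 (adjusted p up to 0.228), and Snord70 without any 1 cisplatin library or control library 3 (up to 0.230).

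Of the 3 lower members, Gm24719, spanned by no gene, had 4, 1 and 0 reads in the cisplatin and 7, 8 and 12 in the control libraries, which did not overlap (log2 fold change -2.94, SE 0.93, adjusted p = 0.012). Gm24920 in Pip5k1a, a lipid kinase, had 0, 0 and 5 against 8, 4 and 9 reads (log2 fold change -3.32, SE 1.11, adjusted p = 0.016). Gm22353, within a gene of the other strand, had 9, 0 and 0 against 8, 6 and 6 reads (log2 fold change -2.62, SE 1.09, adjusted p = 0.047). Both overlapped between the groups, and both have close copies (98.8% and 97.1% identical). Gm24719 missed the threshold without cisplatin library 3 (adjusted p = 0.072), Gm24920 without cisplatin library 1 or 2 or control library 3 (up to 0.085), and Gm22353 without any library except cisplatin library 1 (up to 0.202). All 3 averaged under 1 FPKM in the cisplatin libraries (0.466, 0.605 and 0.682 FPKM for Gm24719, Gm24920 and Gm22353) and became members only through the control libraries. T-cell centring lowers every log2 fold change alike, so it could only leave these 3 members lower. At such counts the size of a fold change depends on the value added before the logarithm.

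Each member was then set against its host in the same library, which removes scaling between libraries. For 100 members with a tested host, the median of member minus host was 0.16 on the log2 scale, compared with 0.25 over 882 nested genes of the table. It was 0.36 for the 23 members in ribosomal protein genes, of which 15 were above 0. At an adjusted p under 0.05 from limma, 1 member rose more than its host and none less, against 5.44% and 2.49% of all nested genes. The member was Gm24339, with 7, 16 and 13 reads in the cisplatin and 0, 3 and 1 in the control libraries. All cisplatin libraries were above all control libraries. The control libraries averaged 0.582 FPKM, so Gm24339 became a member only through the cisplatin libraries, and its p-values are not independent of that choice. Its log2 fold change was 3.47 (SE 0.91, adjusted p = 0.003) and its difference from Cep295, a centrosomal protein gene, was 3.25 (SE 0.94, adjusted p = 0.047). Cep295 was at 2.55, 2.60 and 2.65 against 2.38, 2.09 and 2.18 FPKM. Scarna9, 130 bases away in the same gene, had 5, 11 and 12 against 2, 4 and 1 reads (log2 fold change 1.89, SE 0.81, adjusted p = 0.055). The difference from the host was lost without cisplatin library 1, 2 or 3, or control library 1 or 3.

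**Figure D4:**
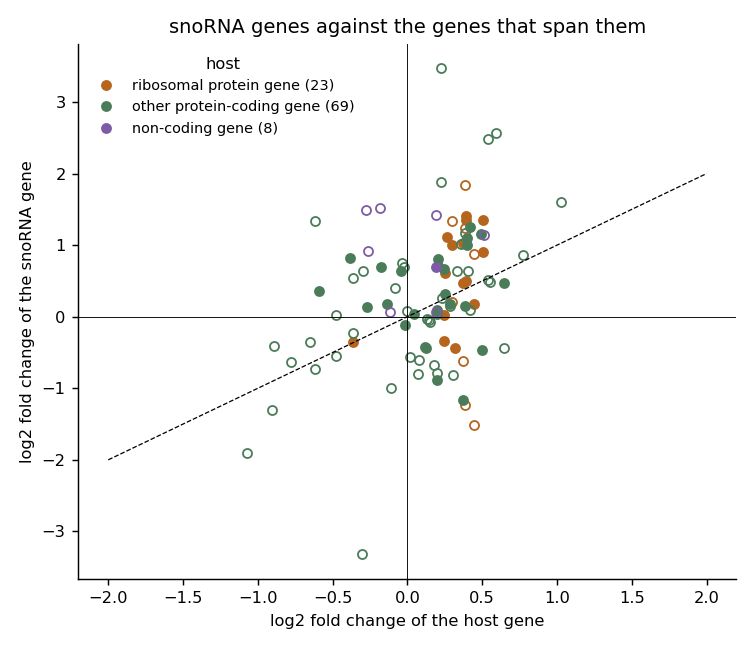
Log2 fold change of 100 snoRNA genes, cisplatin over control (vertical axis), against that of the gene that spans each (horizontal axis), coloured by the kind of host. Filled points have 10 or more mean reads and open points fewer, and the dashed line marks equal change. Hosts spread less than the snoRNA genes, and 62 of 100 snoRNA genes have the sign of their host.

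Hosts were measured far more deeply than the snoRNA genes in them. Over all tested genes 29% were higher and 30.3% lower at an adjusted p under 0.05 from limma. Of 13 tested ribosomal protein hosts, 12 were higher and 1 lower at an adjusted p under 0.05 (median log2 fold change 0.32). Their 23 members had 6 higher and none lower (median 0.61), and 8 were higher at an unadjusted p under 0.05 from limma. Of all 15874 tested genes 4967 were higher and 5024 lower at that unadjusted threshold. Of 60 other protein-coding hosts, 33 were higher and 14 lower (median 0.15), and of their 70 members 5 were higher and 1 lower (median 0.16). Of 6 non-coding hosts, 2 were higher and 1 lower (median -0.15), although their summed FPKM had a ratio of 1.13. With T-cell centring 0 ribosomal protein hosts were higher and 11 lower (median -0.27), 2 and 52 of the other protein-coding hosts (median -0.44) and 0 and 4 of the non-coding hosts (median -0.74). The 23 members in ribosomal protein genes then had 0 higher and 1 lower (median 0.02). The 70 members in other protein-coding genes had 1 higher and 4 lower (median -0.43). The median of all tested genes was then -0.56. Member and host had the same sign in 62 of 100 pairs and in 29 of 41 with at least 10 reads. Pearson's r of the log2 fold changes across genes was 0.37, and 0.21 with at least 10 reads, where both values came from the same libraries and several members shared a host.

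Non-coding hosts are transcripts whose introns carry snoRNAs while their exons are not annotated as coding. The class follows the biotype in the table, which lists Cct6a, a gene for a chaperonin subunit, as a processed transcript. The transcript 2410006H16Rik hosts Snord49a, Snord49b and Snord65. Snord49a had 22, 17 and 18 reads against 8, 12 and 13, which did not overlap (log2 fold change 0.69, SE 0.50, adjusted p = 0.253). Snord49b had 10, 13 and 15 against 6, 3 and 4 reads, also apart (log2 fold change 1.43, SE 0.65, adjusted p = 0.069). Snord65 had 8, 5 and 1 against 3, 2 and 5 reads (log2 fold change 0.06, SE 0.97). None of the 8 members in non-coding genes passed with limma, although all 8 had a log2 fold change above 0 and 1 had an unadjusted p under 0.05. By that unadjusted threshold 4967 of all 15874 tested genes were higher and 5024 lower. With T-cell centring 6 of the 8 were above 0, again with none past the threshold at an adjusted or unadjusted p under 0.05 (0 in each direction).

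On a wider list of 23 non-coding and related snoRNA host genes, 16 were tested, of which 9 were higher and 1 lower at an adjusted p under 0.05 from limma, where 29% of all tested genes were higher and 30.3% lower. Epb41l4aos (log2 fold change 0.51), Snhg15 (0.62), Zfas1 (0.38) and Gas5 (0.36) were among the higher ones. The lower one was Snhg18 (-1.91). On this list only Snhg6 and Epb41l4aos host members, 1 each. With T-cell centring none of the 16 was higher and 12 were lower, where the median log2 fold change of all tested genes was -0.56.

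Finally, a list of 35 genes for core proteins of snoRNA particles, assembly, trimming and ribosome biogenesis was examined at the RNA level. All were tested, and 20 were higher and 2 lower at an adjusted p under 0.05 from limma, against the same 29% and 30.3% of all tested genes. Of the 4 box C/D core proteins, Nop56 rose from 19.2 ± 0.565 to 29.0 ± 0.535 FPKM (SD, n = 3 each, log2 fold change 0.59). The methyltransferase Fbl (0.43) and Nop58 (0.54) also rose. The log2 fold change of Snu13 was -0.10 (adjusted p = 0.129). All 4 box H/ACA core proteins rose, with Dkc1, the pseudouridine synthase, going from 9.46 ± 0.242 to 17.4 ± 0.433 FPKM (SD, n = 3 each, log2 fold change 0.87), Nop10 0.51, Gar1 0.49 and Nhp2 0.28. The chaperone Nolc1 (0.59), the debranching enzyme Dbr1 (0.37) and Rrp9, a protein of the U3 particle (0.75), were higher too. Polr1a, the largest subunit of RNA polymerase I, was lower (-0.39), as was Rnaseh2a (-0.47). With T-cell centring 1 of the 35 was higher and 25 were lower, where the median log2 fold change of all tested genes was -0.56. The direction of the list thus depended on the scaling, while Dkc1 kept a log2 fold change of 0.28.

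**Figure D5:**
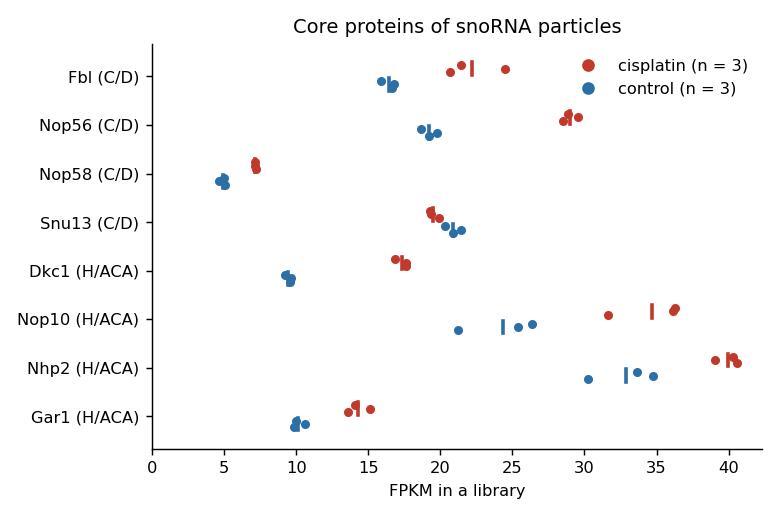
FPKM in each library (horizontal axis, linear from 0) for the genes of the 8 core proteins of box C/D and box H/ACA particles. Points are libraries (n = 3 per group) and vertical bars are group means. The cisplatin libraries lie above the control libraries for 7 of the genes, on the values as deposited, and below them for Snu13.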

How the data were processed

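The authors deposited FPKM for each gene and library, that is, read counts scaled by gene length and by a factor for the library. The sources disagree on how reads were counted: the submitters' processing notes name fastp, HISAT2 2.0.5, featureCounts 1.5.0-p3 and the build mm10, while the methods name LifeScope. Use of strand and of reads that match several genes is not given in the sources used here. Whole reads were rebuilt from FPKM, gene length and each library's step (100% of values above 0 within 0.1 of a whole read). They served for depth, with counting error only covered.

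Tests used limma 3.58.1 (R 4.3.3) on log2(FPKM + 0.1), genes of at least 0.5 FPKM on average, and a variance prior that followed log2 mean reads, since short genes have few reads at a given FPKM. Calls needed a Benjamini-Hochberg adjusted p under 0.05. The steps were tested on simulated data. At the members' depth these had little spread beyond counting error, less than between the real replicates, so they do not show how often calls on members are false. Coordinates of all 135 members matched GENCODE M21. Copies were compared with edlib 1.3.9, and tables were read with pandas 2.3.3 and drawn with matplotlib 3.10.9. Named were the 10 members with the most reads, up to 8 rises and 8 falls past the threshold with at least 10 reads and groups apart, up to 5 in each direction that differed from their host, 3 members on each side of 1 FPKM, hosts, and list genes. Members sharing a host with these were added after values were seen. Some genes that the rule names are not reported here. The members and lists were chosen with earlier results of these data known, and the box C letters were shortened after matches were seen. Alternatives were other pseudocounts, filters, priors, scalings, hosts, voom, libraries left out, and a block for replicate number. The table held 0 columns of other samples.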

Additional observations from a re-analysis of the deposited data

How the results depend on the processing

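Of 135 members, 14 passed an adjusted p under 0.05 from limma. The count was 25 with a pseudocount of 1, 9 with 0.01, 26 with the variance prior over FPKM, 22 after quantile normalization, 9 of 50 with at least 10 reads, 6 of 23 with at least 5 FPKM, and 8 of 50 with voom. After T-cell centring it was 11, of which 10 were lower. Leaving out 1 library gave 7 to 13. With a 2-fold minimum the count was also 14, and it was 21 with the prior over FPKM, 21 after quantile normalization, 17 with rebuilt reads, 16 with no trend, 9 with a pseudocount of 0.01, 6 with at least 5 FPKM, 9 with at least 10 reads, 7 with voom, 10 after T-cell centring (9 lower) and 7 to 13 without 1 library. Member minus host gave 1 call, 2 with a pseudocount of 1, and 0 with a pseudocount of 0.01, no filter, at least 5 FPKM, at least 10 reads, a prior over FPKM or no trend, and 0 to 1 without 1 library, where the 1 without cisplatin library 3 was a fall. The median log2 fold change of 0.23 was 0.69 with at least 5 FPKM, 0.48 with at least 10 reads, 0.56 with voom, 0.41 after quantile normalization and -0.36 after T-cell centring. The ratio of summed FPKM was 0.858 after T-cell centring, an alternative chosen after seeing the data, in place of 1.29. T-cell centring gave 26 snoRNP genes (25 lower) and 12 non-coding hosts (all lower), with the median of all tested genes at -0.56. It also turned Snord104 (-0.35), Gm25835 (-0.45), Snora31 (-0.42) and Gm23136 (-0.12). Without 1 library Gm25835 ranged from -0.00065 to 0.33 and Snora31 from -0.079 to 0.49. The causes of these shifts were not tested, beyond the fewer genes that stricter filters leave. Replicate numbers did not pair the libraries (correlations of deviations 0.023, -0.063 and -0.021), and the replicate block gave 12 members at an adjusted p under 0.05, 11 with the 2-fold minimum, and 1 for member minus host. Depth limits most members, as 85 of 135 averaged fewer than 10 reads.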

Other observations

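Small nuclear RNA genes, a related class of short genes, were compared in the same fit. Of 177 tested, 11 were higher and 15 lower at an adjusted p under 0.05 from limma, with a median log2 fold change of 0.09. The shares over all tested genes were 29% higher and 30.3% lower. Replicates of a group differed by more than counting error, with chi-square divided by its degrees of freedom at 2.02 to 2.88 on the members' reads and 5.11 to 5.99 on those of all genes.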
